A study of Capra hircus with 23 samples.

Results

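Among 28931 features of a count table from goat ear fibroblasts, 141 had 0 counts in each day 0 library (CK1, CK2 and CK3) and 10 or more counts in each day 8 library (5i8d1, 5i8d2 and 5i8d3). These 141 features, 0.487% of the table, are called the members here. They were chosen from the counts of days 0 and 8, so the absence at day 0 and the presence at day 8 are a description and carry no test. The libraries of days 1, 2, 3, 4 and 6 took no part in the choice, and they show when the members appeared. All 141 members carried running IDs with the prefix gene. No file links such an ID to a gene name, and 0 IDs matched the 28911 genes of the RefSeq table. No gene name, genome position or sequence is therefore given, and the fibroblast and mammary epithelial markers that would check the labelled cell types could not be looked up. A pair of members is given by ID, and the others by their place in the order of mean level at day 8.

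The cells were Capra hircus ear fibroblasts, which the study took from young Guanzhong dairy goats. The day 0 group (CK) was fibroblasts before induction, and the other groups were the same kind of cells after 1, 2, 3, 4, 6 or 8 days in an induction medium that the labels call BFRTV. All were grown on Matrigel-coated plates, and no genetic change is stated for any group. There were 3 libraries for days 0, 4 and 8, and 2 for days 1, 2, 3 and 6. The number of animals is not stated, and the sample titles of each day carry both the code DF6 and the code DF7, which the labels do not explain and to which the columns could not be tied.

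Fibroblasts and epithelial cells differ in the genes that they keep silent. Fibroblasts make connective tissue matrix, while mammary epithelial cells form polarised sheets joined by tight contacts and can secrete milk. Chemical reprogramming tries to move a cell from one identity to another with small molecules in place of added genes. The study names forskolin, which activates adenylyl cyclase, TTNPB, a retinoic acid receptor agonist, and VPA, a histone deacetylase inhibitor. It also names RepSox, which inhibits the TGF-beta type I receptor, and tranylcypromine, which inhibits monoamine oxidases and the histone demethylase LSD1. A transcript that is not counted in the starting cells and is counted in every library at the end is one readout of such a change, whatever its function.

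Library totals ran from 21540742 to 26165393 counts. A count of 0 allows up to 3 counts, which was 0.115 to 0.139 CPM in a single library (CPM is the count scaled to a common library total) and 0.0429 CPM over the 3 day 0 libraries. The limits cover counting error only and are on library totals. CK3 stood apart from the other day 0 libraries. Its rank correlation across features was 0.572 with CK1 and 0.581 with CK2, against 0.998 between CK1 and CK2. It had counts for 15605 features against 18093 and 18102. Its TMM factor, by which edgeR scales a library total, was 0.372 against 0.970 for CK1 and 0.973 for CK2. On that scale the limit for CK3 would be higher than the one given. With CK1 and CK2 alone as day 0, 167 features met the rule. The 26 that were added had 1 to 9 counts in CK3, with a median of 1. Their mean CPM at day 8 ranged from 0.426 to 191, with a median of 1.92.

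Most members were at low levels even at day 8. The mean CPM of the 141 members at day 8 ranged from 0.413 to 76.0, with a median of 1.78. There were 24 members above 10 CPM, 75 between 1 and 10 CPM and 42 below 1 CPM. Together they took 0.0937% of all counts in 5i8d1, 0.0898% in 5i8d2 and 0.0701% in 5i8d3, and the 10 highest members held 43.7% of the summed day 8 level. The members with the lowest day 8 counts lay close to features outside the rule. The 17 members whose lowest day 8 count was 10 or 11 had a median of 0.617 CPM at day 8, and the 20 silent features whose lowest day 8 count was 8 or 9 had a median of 0.455 CPM. A further 81 features met the day 8 minimum but had exactly 1 count over the day 0 libraries. Their mean CPM at day 8 had a median of 1.63 and ranged from 0.467 to 408, above the highest member. The border at day 0 thus separates features that differ by 1 count.

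The members came on over several days, not at one time. Detection was taken as 3 or more counts in every library of a day. At day 1, 25 of 141 members were detected (17.7%). Day 2 brought the number to 39 and day 3 to 67. By day 4 it was 101, and by day 6 it was 136. Over all 28931 features the detected share hardly moved, from 56.0% at day 1 to 57.4% at day 6. In the same span, the members with 0 counts in every library of the day numbered 48, 29, 14, 4 and 0 on days 1, 2, 3, 4 and 6. The days could not be read without their libraries. At day 1, 47 members had 3 or more counts in 5i1d1 and 32 in 5i1d2. At day 2 these numbers were 75 in 5i2d1 and 47 in 5i2d2, and at day 3 they were 105 in 5i3d1 and 72 in 5i3d2. The libraries numbered 1 thus held more of the members at days 1 to 3, and they also had counts for more features in general. Features with any count numbered 19026 in 5i1d1 and 18334 in 5i1d2, 19118 and 18607 at day 2, and 19219 and 18920 at day 3. At day 6 the members detected were 139 and 138, close to all. Their level was higher in 5i6d1 in 95 members and higher in 5i6d2 in 46, and no share over all features is set beside this.

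**Figure D1:**
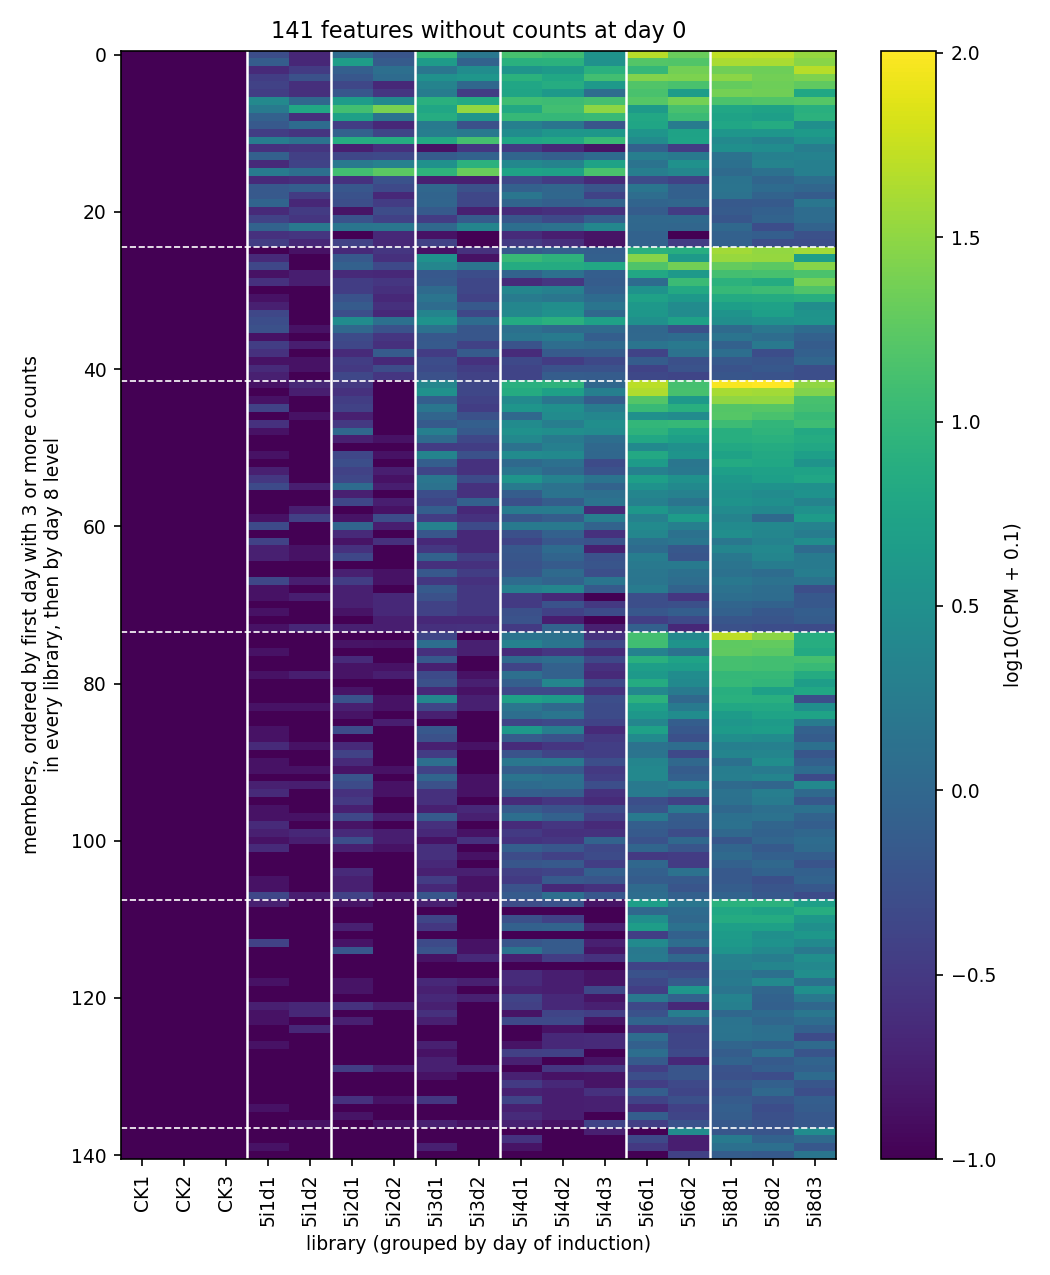
Level of each of the 141 members (rows) in each of the 17 libraries (columns, grouped by day of induction and divided by solid lines), as log10(CPM + 0.1). Dashed lines divide the members by the first day with 3 or more counts in every library, with 25, 17, 32, 34, 29 and 4 members for days 1, 2, 3, 4, 6 and 8 from top to bottom.

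The summed level was higher on each later day, which is given without a test because the choice of members at day 8 bears on it. The summed level of the 141 members was 23.6 CPM in 5i1d1 and 18.6 CPM in 5i1d2 at day 1, and 78.7 and 71.1 CPM at day 2. Day 3 gave 133 and 121 CPM, and day 4 gave 229, 228 and 192 CPM. In 5i6d1 it was 599 CPM and in 5i6d2 423 CPM. The day 8 libraries reached 937, 898 and 701 CPM. The libraries of neighbouring days did not overlap in this sum at any step. The mean sum differed by 3.56-fold from day 1 to day 2, 1.69-fold from day 2 to day 3, 1.70-fold from day 3 to day 4, 2.37-fold from day 4 to day 6 and 1.65-fold from day 6 to day 8. The median over members was 0.0383 CPM at day 1 and 0.104, 0.247, 0.546 and 1.37 CPM at days 2, 3, 4 and 6. The first of these medians lies below the level that 3 counts stand for.

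**Figure D2:**
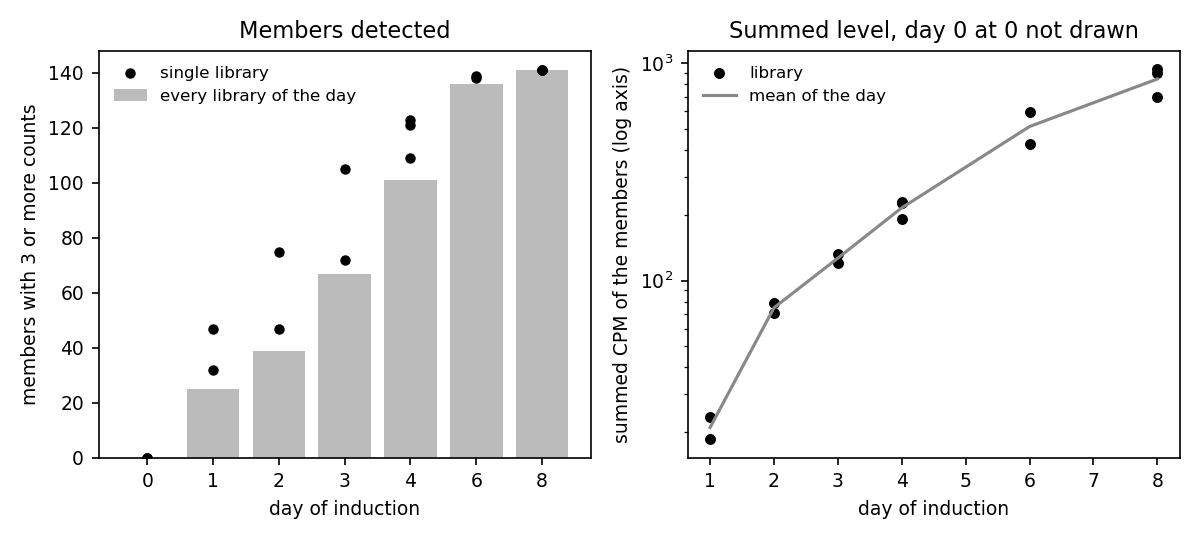
Left, number of the 141 members with 3 or more counts by day of induction, as bars for every library of the day and points for single libraries. Right, summed CPM of the members per library on a log axis against the day, with a line through the mean of each day; the mean sum went from 21.1 CPM at day 1 to 845 CPM at day 8.

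The levels were also read against each member's own day 8 mean. The rule required counts at day 8, which favours a high day 8 level, so these shares are a description. On days 1, 2, 3, 4 and 6 in turn, 6, 11, 17, 37 and 104 members stood at 50% or more of that mean. At 10% or more stood 24, 41, 63, 111 and 141. The median member stood at 70.6% of its day 8 mean at day 6, and 29 members were higher at day 6 than at day 8. The mean of 66 members did not fall at any step from day 1 to day 8, and that of the other 75 fell at least once. The highest mean fell on day 8 in 110 members and on day 6 in 21, while 6 had it on day 4, 3 on day 3 and 1 on day 2.

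Day 6 was compared with day 1 in the libraries that the rule did not use, to ask whether the members rose within that span. A rise is favoured beforehand, because the rule chose features without counts at day 0 and counted at day 8. The shares over all features are therefore a background, not the share that features so chosen would show. The comparison used edgeR's quasi-likelihood test on the 11 libraries of days 1 to 6, with p-values adjusted over all features tested. Of the 141 members, 93 were called higher and 0 lower at day 6, and 30 did not pass the filter on low counts. Over the 16389 features tested, 13.9% were called higher and 15.0% lower. The filter asks for counts in some libraries, which many members could meet through the later days alone. Without the filter all 141 members were tested and 103 were called higher, where 9.45% of 22199 features were. DESeq2 called 110 members higher, where it called 12.9% of features. The median log2 fold change of the 111 members that passed was 5.73, against -0.02 over all features tested. It was 4.70 when the 30 of them with 0 counts at day 1 were set to the bound that 3 counts over both day 1 libraries give. The count rested partly on single libraries. It was 54 without 5i1d2, where 7.67% of all features tested were called higher, and 54 without 5i6d1, where 5.28% were. The calls fell in number among all features too in these fits, but they rose among all features without 5i1d1. In the fits without 5i1d1 or 5i1d2, day 1 had 1 library, assumed to vary like the other groups. The same holds for day 6 without 5i6d1. All 24 members above 10 CPM at day 8 were among the 93. In 133 of 141 members both day 6 libraries lay above both day 1 libraries, which was so for 27.4% of the features with a count in either day.

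The members called differed in how closely the libraries of a day matched. The member in place 8 of the day 8 order had 6 and 12 counts at day 1 and 13 and 26 at day 2. It had 78 and 88 counts at day 3, and 183, 152 and 285 at day 4. Day 6 gave 631 and 630 counts, and day 8 gave 677, 563 and 702. No library of a later day fell below one of an earlier day up to day 6. Its log2 fold change from day 1 to day 6 was 6.19 (SE 0.56, edgeR adjusted p = 0.000413). The member in place 4 moved later. It had 0 and 1 counts on day 1, 3 and 5 on day 2, and 1 and 4 on day 3. The day 4 libraries held 13, 18 and 16 counts. It then had 185 and 183 counts at day 6 and 853, 804 and 1011 at day 8. Its log2 fold change from day 1 to day 6 was 8.29 (SE 0.74, edgeR adjusted p = 0.000413), a fitted value that depends on the prior count because day 1 held a lone count. At 13403 nt the longest member, in place 7, had 0 counts in the libraries of days 1 and 2. It had 8 and 0 counts at day 3, and 29, 31 and 4 at day 4. Day 6 gave 293 and 61 counts, and day 8 gave 1126, 747 and 191. Against 3 counts over the day 1 libraries, its pooled level at day 6 was higher by at least 6.94 on the log2 scale (edgeR adjusted p = 0.0157). These members and the others described by place were chosen after their values were seen.

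The earlier and the later part of this span were also compared. The choice of members bears on these comparisons in the same way. From day 1 to day 4, 48 members were called higher and 0 lower by edgeR's quasi-likelihood test, where 5.41% of all features tested were called higher and 6.08% lower. DESeq2 called 73 members higher, where it called 7.37% of features. The median log2 fold change of the 111 members that passed the filter was 4.20, or 3.32 with the members at 0 on day 1 at their bound, against 0.00 over all features. Without the filter 53 of 141 members were called, where 3.91% of features were. In 107 of 141 members all 3 day 4 libraries lay above both day 1 libraries, against 21.8% of the features with a count in either day. The edgeR count was 15 without 5i1d2, 19 without 5i4d1 and 18 without 5i4d2. In these fits 1.61%, 1.47% and 1.2% of all features were called higher. From day 4 to day 6, edgeR called 0 members in either direction, and it called 0.0061% of all features higher. At an unadjusted p under 0.05, 45 members were higher and 1 was lower, where 6.40% of features were higher. Without the filter edgeR called 2 members higher, where 0.0676% of features were. DESeq2 called 17 higher and 1 lower, where 1.59% of features were higher, and limma on log2(FPKM + 1) called 20 higher, where 0.617% of features were. The median log2 fold change from day 4 to day 6 was 1.38 over these members and 0.01 over all features. The member in place 4 came nearest to the threshold (log2 fold change 3.63, SE 0.43, edgeR adjusted p = 0.0542). In 87 of 141 members both day 6 libraries were above all 3 day 4 libraries, against 17.0% of the features with a count in either day. In 6 members they were below all 3, against 27.9% of these features. These levels are on library totals. The TMM factors over all 17 libraries were 1.12, 1.11 and 1.12 at day 4 and 1.04 and 1.05 at day 6. The part of this scale in the shares above was not tested. The edgeR test, which scales by such factors, called 0.0061% of all features higher and 0% lower.

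**Figure D3:**
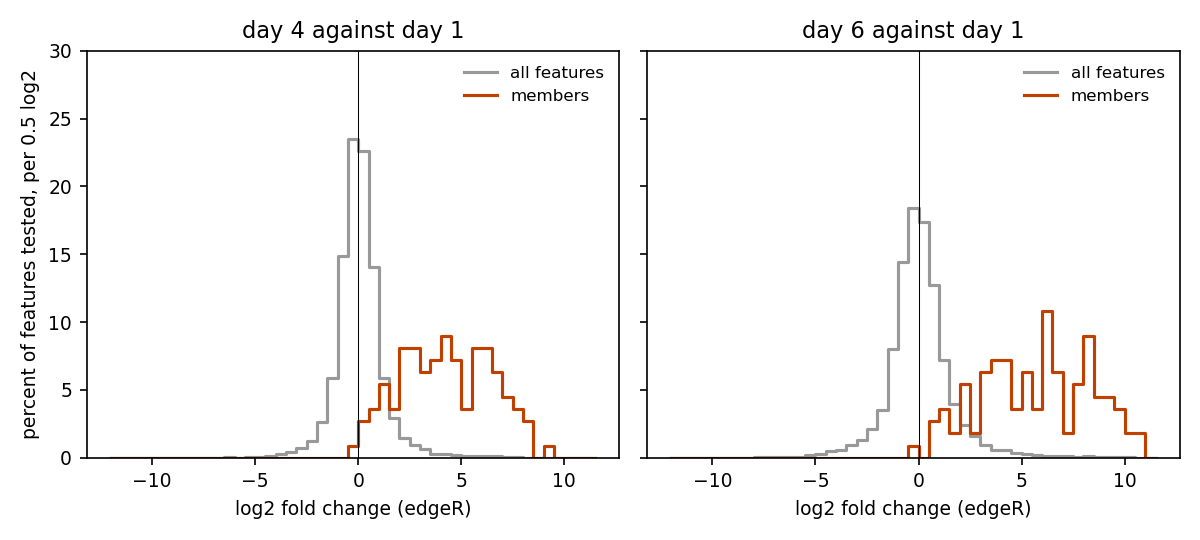
Distribution of edgeR's log2 fold changes in bins of 0.5 for day 4 against day 1 (left) and day 6 against day 1 (right), as a percentage of the 16389 features tested (grey) and of the 111 members that passed the filter (orange). The members' medians were 4.20 and 5.73, and values of members at 0 on day 1 depend on the prior count.

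The member given by ID as gene22647 had the highest level at day 8. It is 1002 nt long in the deposited tables, and it was also the highest member per length, at 75.9 ± 38.2 FPKM (SD, n = 3) at day 8. Days 1 and 2 held 1 and 3 counts and then 5 and 0, and day 3 held 56 and 8. Its level was 7.81, 8.73 and 0.901 CPM at day 4 and 50.04 and 13.2 CPM at day 6. At day 8 it was 95.0, 101 and 32.0 CPM. Days 1 and 2 overlapped at the level of a few counts, and at days 3, 4, 6 and 8 the lowest library lay well under the others of its day. The log2 fold change of gene22647 from day 1 to day 6 was 8.57 (SE 1.67, edgeR adjusted p = 0.00757), with both day 6 libraries above both day 1 libraries. From day 1 to day 4 it was 6.02 (SE 1.57, edgeR adjusted p = 0.0417), and this call was lost without 5i1d1, 5i1d2, 5i4d1, 5i4d2, 5i6d1 or 5i6d2 (adjusted p of 0.0555 to 0.185). It was also lost in the edgeR fit of all 17 libraries (adjusted p = 0.058) and by limma on log2(FPKM + 1) (adjusted p = 0.121). From day 4 to day 6 it was 2.55 (SE 0.98, edgeR adjusted p = 0.295).

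The member given as gene16028 had the highest mean level over days 1, 2 and 3 and took another course. It is 2218 nt long and held place 32 of the day 8 order. Its level was 1.63 and 6.10 CPM at day 1, 12.4 and 24.75 CPM at day 2, and 5.98 and 32.4 CPM at day 3. Day 4 gave 6.44, 12.4 and 31.2 CPM, and day 6 gave 4.22 and 13.5 CPM. The 3 day 8 libraries held 5.85, 5.29 and 7.76 CPM. On days 1, 2, 3 and 6 the library numbered 2 was the higher of the pair, the reverse of gene22647 on days 2, 3 and 6. At day 3 its level on library totals was at least 139-fold above what 3 counts over the day 0 libraries stand for in 5i3d1. The day 0 side is the 0 that the rule required. In 5i3d2 its level was at least 757-fold above the same bound. Its log2 difference was 1.15 for day 6 against day 1 (SE 1.06, adjusted p = 0.418 by edgeR) and 1.97 for day 4 against day 1 (SE 1.02, adjusted p = 0.208 by edgeR). The value from day 4 to day 6 was -0.82 (SE 0.97, edgeR adjusted p = 0.806). Each of these values moved with single libraries. The first was 2.57 without 5i1d2, 0.44 without 5i1d1, 1.74 without 5i6d1 and 0.06 without 5i6d2. The second was 3.40 without 5i1d2, 1.26 without 5i1d1 and 1.14 without 5i4d3, and none of these fits called it.

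**Figure D4:**
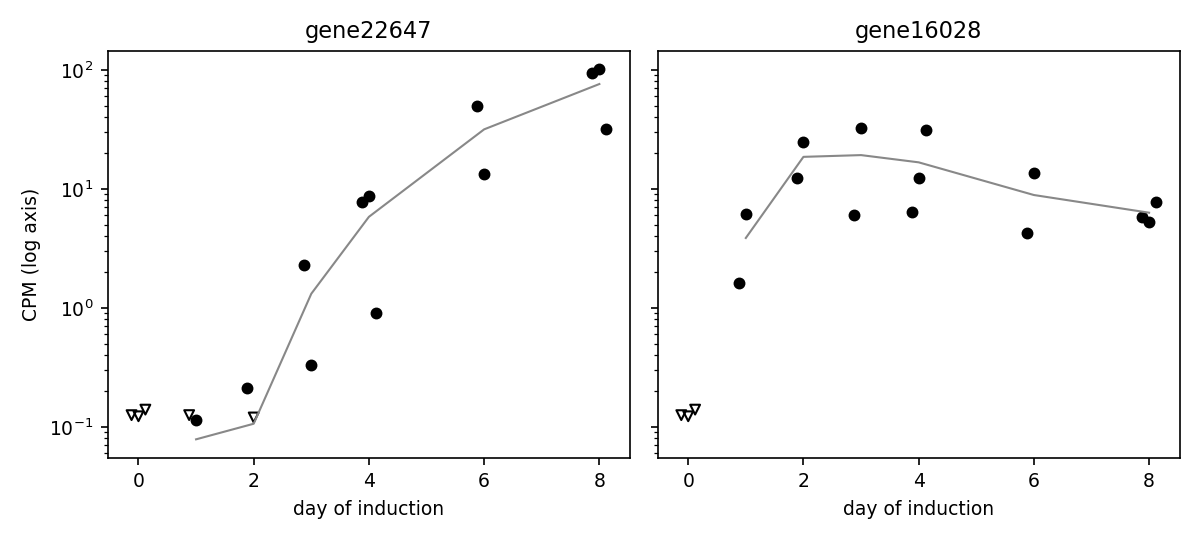
Level in CPM (vertical log axis) by day of induction, with gene22647 on the left and gene16028 on the right. Each filled point is a library, an open triangle stands at the level of 3 counts for a library below it, and the line joins the day means; gene22647 ends at 76.0 CPM and gene16028 has its highest mean, 19.2 CPM, at day 3.

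The course of gene16028 was shared in part by other members. In 10 of the 141 members the highest mean fell on day 2, 3 or 4. Together these 10 held 66.1% of the summed level at day 2 and 47.4% at day 3, but 2.90% at day 8. Much of this was in a pair of them. Of the mean sum of 74.9 CPM at day 2, gene16028 held 18.6 CPM and the member in place 83 held 15.0 CPM. The sum over the remaining members was 12.15, 25.4 and 66.7 CPM at days 1, 2 and 3. The ratio of the highest day mean to the day 8 mean in the 10 members ranged from 1.13 to 11.05, with a median of 2.13. The 11.05 belonged to the member in place 83, 4278 nt long. It had 40 and 30 counts at day 1, and 292 and 443 on day 2. The day 3 libraries held 216 and 496 counts and those of day 4 held 123, 129 and 320. It then had 43 and 57 counts at day 6 and 22, 30 and 49 at day 8. Both libraries of day 2 and both of day 3 lay above all libraries of days 1, 6 and 8. Another of the 10, in place 58 and 6187 nt long, had 43 and 33 counts on day 1, 168 and 178 on day 2, and 155 and 317 on day 3. Day 4 gave 133, 162 and 246 counts, day 6 gave 64 and 136, and day 8 gave 55, 50 and 84. Not every peak stood clear of day 8. The member in place 140 had 7, 17 and 15 counts at day 4 and 12, 12 and 11 at day 8. These peaks were read from the same libraries that define them and carry no test. All 10 members passed the filter for day 6 against day 1, and 6 of them were among those called higher at day 6. The day 6 level was still above the day 1 level in these 6, although their highest level lay between.

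At the other end, 10 members had 0 counts in all 6 libraries of days 1, 2 and 3, and 4 had 0 counts in all 9 libraries of days 1 to 4. In 4 members day 8 was the first day with 3 or more counts in every library. The one in place 101 had no more than 2 counts in any library up to day 4. It then had 5 and 2 counts on day 6, and 26, 28 and 15 on day 8. The one in place 107, at 898 nt, had 0 counts up to day 4. Day 6 gave 0 and 7 counts, and day 8 gave 15, 15 and 36. A step from 0 to a few counts is at the limit of detection, so the order of first appearance among such members could not be set at this depth.

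Day 8 was not uniform among the members. In 19 members the level in 5i8d3 was under 50% of the lower of 5i8d1 and 5i8d2 (13.5%), and in 10 it was over 2 times the higher of them (7.09%). Among 14688 other features with 10 or more counts in each day 8 library these shares were 1.61% and 0.429%. Those features were at a higher level, with a median of 23.45 CPM at day 8, and the day 8 values are the ones that the rule used, so the shares are a description and nothing is drawn from their difference. The rank correlation across features was 0.997 between 5i8d1 and 5i8d2 and 0.988 and 0.987 between these and 5i8d3. The libraries of day 6, which played no part in this division, were then read. In 19 of the 19 members that were low in 5i8d3, the level was lower in 5i6d2 than in 5i6d1, and in 16 it was under 50% of it. In 9 of the 10 that were high in 5i8d3, the level was higher in 5i6d2. At day 4, 5i4d3 was the lowest library in 18 of the 19 and the highest in 5 of the 10. Over all 141 members, the level was lower in 5i6d2 in 95, and 5i4d3 was the lowest in 83 and the highest in 29. No share over other features is set beside these counts or the other counts of day 4. At day 6, the match with 5i8d3 was not particular to the members. Of 237 other features that were low in 5i8d3 by the same measure, 95.4% were lower in 5i6d2, and of 63 that were high, 90.5% were higher. The columns could not be tied to the codes of the titles, so the part in these differences of what the codes mark was not tested.

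The extremes on either side can be given in counts. The member in place 38, 3007 nt long, had 177, 193 and 11 counts at day 8. Day 6 gave 196 and 23 counts, and day 4 gave 116, 111 and 10. At each of these days it was lowest in the library with the highest number. In the opposite direction, the member in place 87, 1219 nt long, had 12, 13 and 74 counts at day 8. Day 6 gave 0 and 68 counts, and day 4 gave 0, 0 and 2. It was thus at 0 in 5i6d1 and well counted in 5i6d2. Its mean at day 6 was the highest of any day and rested on a lone library.

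**Figure D5:**
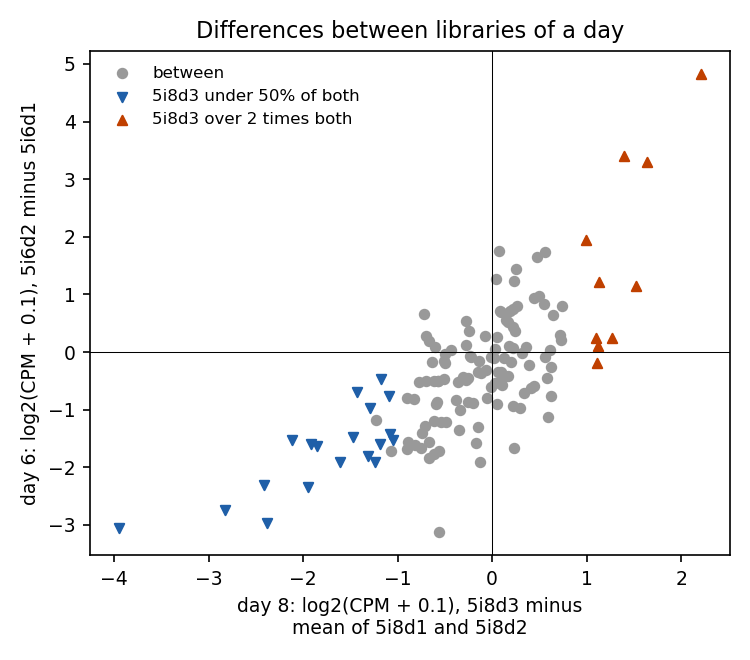
Each point is a member, with the difference of 5i8d3 from the mean of 5i8d1 and 5i8d2 (horizontal axis) and of 5i6d2 from 5i6d1 (vertical axis), both in log2(CPM + 0.1). All 19 members with 5i8d3 under 50% of both other day 8 libraries (blue) lie below 0 at day 6, and 9 of the 10 with 5i8d3 over 2 times both (orange) lie above 0.

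Length and numbering were not used by the rule. The length of each feature follows from the deposited counts and FPKM values. The members ranged from 310 to 13403 nt with a median of 2278 nt and quartiles of 1456 and 3739 nt. Over the 22657 features with a length the median was also 2278 nt, with quartiles of 1207 and 3912 nt. The medians were equal, and the quartiles of the members lay inside those of the features in general. Some members had neighbouring running numbers. Of the 141 members, 24 (17.02%) had a member as the next or previous number, in 2 runs of 3 members and 9 runs of 2, while 0.881% of the 28604 other features with the prefix gene had one. This was not tested. The sources used here do not say what the order of the numbers means. They also do not say how reads that match several features were counted, so levels within a run may be split between near-identical copies.

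Within the 2 runs of 3, levels differed widely between neighbours. In one run of 3, the lengths were 4259, 4253 and 3256 nt and the day 8 counts were 154, 172 and 102 in the first, 703, 800 and 353 in the second and 18, 15 and 22 in the third. At day 6 the first had 71 and 23 counts, the second 366 and 102 and the third 14 and 3, so all 3 were higher in 5i6d1. In the other run of 3 the day 8 counts were 35, 19 and 26, then 286, 330 and 370, then 168, 122 and 159. Its middle member had 143 and 102 counts at day 6 and 18, 31 and 16 at day 4 (log2 fold change 2.60, SE 0.37, edgeR adjusted p = 0.0568). The member in place 87 that was at 0 in 5i6d1 also had a neighbour among the members. That neighbour, in place 72 and 957 nt long, had 6 and 91 counts at day 6 and 30, 22 and 80 at day 8, with the same libraries high.

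Most of the silent features that were firmly counted in the days between were members, which the rule favours. Of 9676 features with 0 counts in all day 0 libraries, 6274 had none in any library of the table, and the members were 4.15% of the other 3402. At day 6, 117 of the silent features had 10 or more counts in each library, and 105 of these were members, or 105 of the 141 members. At day 4 there were 63 such features, of which 56 were members. A silent feature counted at day 6 or day 4 only had to reach 10 counts in each day 8 library to be a member. No share of all features that stayed counted in this way is set beside these numbers, and nothing is drawn from them.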

How the data were processed

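Total RNA was depleted of ribosomal RNA and sequenced on an Illumina HiSeq 2500. The authors deposited raw counts of each feature, not normalized, and FPKM values. For all 22657 features in both tables, the deposited FPKM was the count over the library total and a length, within a relative tolerance of 1e-06. The submitters' processing notes name FastQC 0.10.1, HTSeq and DESeq2 1.16.1. The aligner, build and annotation are not given in the sources used here. Of 23 labelled samples, 17 libraries in 7 groups were in the tables, and the 6 samples of passaged induced and natural mammary epithelial cells were not analysed here. Columns were assigned to days by name.

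The members, lists and tests were chosen with earlier results of these data known. Levels are CPM on the library total. The test was edgeR 4.0.16 under R 4.3.3 (TMM, filterByExpr by day, quasi-likelihood F test, Benjamini-Hochberg, calls at an adjusted p under 0.05). The 11 libraries of days 1 to 6 entered one fit, which had been checked on simulated counts. SE was the log2 fold change over the square root of F. Alternatives were RLE, no filter, DESeq2 1.42.0, limma 3.58.1 on log2(FPKM + 1) and log2(FPKM + 0.1), all 17 libraries, the threshold of the study, leaving out each library and a block on column numbers. The study's methods and threshold concern long noncoding RNA sequencing, with 2 biological replicates for days 0 and 8. Whether its libraries are among those used here could not be worked out. The methods do not say whether the replicates were separate cultures or animals, and the labels do not say it for any day. The p-values thus reflect only the spread among the libraries, part of which may be technical. The features given by ID were those with the highest mean CPM at day 8 and over days 1, 2 and 3.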

Additional observations from a re-analysis of the deposited data

How the results depend on the processing

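The call of members as higher at day 6 than at day 1 held within 1.5 times the count of 93 under every other tool, unit, filter and library set, and ranged from 54 to 108 when single libraries were left out. From day 1 to day 4 the count was 48, and 73 with DESeq2, 25 by limma on log2(FPKM + 1) (3.27% of all features), 87 at the threshold of the study (log2 fold change of 2 or more and unadjusted p under 0.05, 4.22% of all features) and 15 to 57 without single libraries. From day 4 to day 6 the count was 0, and 2 without the filter, 17 with DESeq2, and 20 and 12 by limma (log2(FPKM + 1) and log2(FPKM + 0.1), the latter 0.162% of all features). It was 1 in the fit of all 17 libraries (0.0179%) and 28 at the threshold of the study (1% of all features). Without 5i4d1, 5i4d2 or 5i4d3 it was 0, and 0% of all features were called. It stayed at or near 0 in fits that left 1 library in a group. The cause of these moves was not tested. A replicate block on the numbers 1 and 2 in the column names, without 5i4d3, gave 97, 75 and 0 calls for the 3 comparisons (18.5%, 9.78% and 0.00611% of all features), and called gene16028 at day 6 (log2 fold change 1.25, edgeR adjusted p = 0.0429) and day 4 (1.42, edgeR adjusted p = 0.0475) against day 1. The difference of number 2 from number 1 correlated across 13201 features at 0.668 to 0.834 between days 1, 2 and 3, and at 0.051 to 0.292 in the 7 pairs with day 4 or 6. As 2 of the 10 values (days 1 and 4, 0.093, and days 1 and 6) were under 0.1 and no label gives the numbers a meaning, the libraries were not treated as paired. A block on the codes DF6 and DF7 could not be fitted, as the columns do not carry them. The number of members was 141, and 88 with a minimum of 20 counts at day 8, 253 with at most 1 count in each day 0 library and 149 to 204 without single libraries. With a minimum of 1 count, 50 and 72 members were detected at days 1 and 2, and with 10 counts 7, 13, 26 and 56 at days 1, 2, 3 and 4. Without single libraries these were 32 to 47, 47 to 75 and 72 to 105 at days 1, 2 and 3. The change of gene16028 from day 4 to day 6 was -0.82 and turned to 0.0074 without 5i4d3 (edgeR adjusted p = 1.0). Without single libraries it ranged from -1.89 to 0.0074, never past the threshold. Levels under 0.139 CPM are within what a count of 0 allows.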
